A study of Mus musculus with 18 samples.

Results

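The comparison is the effect of losing Hmgn1 on liver RNA in mice given N-nitrosodiethylamine (DEN), set against the same effect in uninjected mice at 4 weeks. For each probe set it is the knockout minus wild-type difference with DEN, less the knockout minus wild-type difference at 4 weeks, on the log2 scale. It uses 12 of the 18 arrays of the series, 3 in each of 4 groups, and leaves out the 6 arrays of saline-injected mice. The livers came from Hmgn1+/+ mice, here wild type, and from Hmgn1-/- mice, here knockout, either uninjected and taken at 4 weeks or labelled 12 weeks and injected with DEN (10 µg for each g they weighed) when 4 weeks old. The injection protocol names males. Whether these 12 weeks ran from birth or from the injection is not given in the titles; the design text can be read as the latter. The 4-week and DEN groups therefore differ in injection and in age, and these cannot be told apart here. Both genotypes came from crosses of heterozygotes and were then bred as separate homozygous lines, so the genotype also cannot be told apart from other differences between the lines. It is not stated in the labels whether 3 arrays stand for 3 animals. The p-values therefore measure the spread between these samples, which may be technical.

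HMGN1 is a small protein of the high mobility group family that binds nucleosomes and loosens chromatin. DEN is a liver carcinogen that cytochrome P450 enzymes of the hepatocyte turn into an agent that ethylates DNA. In the liver, bone morphogenetic proteins (BMPs) released by endothelial cells act on hepatocytes through Smad proteins and switch on Id1, Smad7 and the iron hormone hepcidin; cholesterol is made under the control of SREBP factors and is drained into bile acids by Cyp7a1; and Kupffer cells are the resident macrophages.

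Signals were MAS5 intensity values for 45101 probe sets per array, scaled by the authors to a trimmed mean of 150, with a highest signal of 46967 to 60173 per array. Precision is limited by there being 3 arrays in a group. Pairs of arrays from 1 group had correlations of 0.964 to 0.976 between their log2 values, across probe sets. The tissue label matched the defining markers: 11 hepatocyte markers had a summed signal of 242401 to 276079 over the 12 arrays. Pancreas, skeletal muscle and lymphocyte lists summed to 966 at most on each of these arrays. RNA quality moved with the groups. The Gapdh 3' to 5' ratio, which grows as RNA is degraded, was 1.13 to 2.19 in wild type and 1.35 to 1.70 in knockout at 4 weeks, against 1.02 to 1.13 and 0.907 to 0.937 with DEN. Its part in the results was not tested beyond the fits with this ratio that are named beside them.

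The targeted gene gave no check of the labels. Hmgn1 (chromosome 16, 96121588 to 96127725, GRCm38) had signals of 6083, 7948 and 6724 in wild type and 6864, 6667 and 6503 in knockout at 4 weeks. With DEN the signals were 6463, 5392 and 6983 in wild type and 5631, 6894 and 6401 in knockout. Wild type and knockout overlapped in both conditions. The position of these probes relative to the deleted stretch is not stated in the sources used here, so the values do not show whether intact Hmgn1 RNA was made.

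The genotype difference changed between the conditions at 36 of 27022 tested probe sets (0.133%; limma, Benjamini-Hochberg adjusted p under 0.05, here called). Of these, 14 had a higher (0.0518%) and 22 a lower (0.0814%) genotype difference with DEN. Counting each gene once, by its tested probe set of highest mean signal, 29 of 12924 genes were called (0.224%), 11 higher (0.0851%) and 18 lower (0.139%). At 4 weeks 252 probe sets (0.933%) and 169 genes (1.31%) differed between the genotypes, 96 genes higher (0.743%) and 73 lower (0.565%) in knockout. With DEN 0 genes did (0%), by limma at an adjusted p under 0.05; 796 genes had an unadjusted p under 0.05. The genes called at 4 weeks are described by their DEN values: the 96 that were higher in knockout had a median log2 difference of 0.73 at 4 weeks and 0.00 with DEN, and the 73 that were lower had -0.73 and 0.05. These genes were chosen by their 4-week values, so the smaller DEN values carry no test.

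The 29 called genes were almost all genes with a genotype difference at 4 weeks and little or none with DEN. In 29 of 29 the change ran against the 4-week difference, and in 29 of 29 the knockout and wild-type signals at 4 weeks did not overlap, against 22.9% of all genes tested. Since the 4-week difference is part of the contrast, this is a description and no test. With DEN the signals did not overlap in 8 of 29 genes, against 11.1% of all genes tested. The DEN difference is the other part of the contrast, so this too is a description and no test. The median size of the log2 difference was 0.92 at 4 weeks and 0.26 with DEN, and in 28 of 29 genes, all but Med18, it was smaller with DEN. From 4 weeks to DEN, wild type and knockout moved in opposite directions in 27 of 29 genes. Over all genes tested, this move was called for 231 in wild type (1.79%; 1.64% of probe sets) and for 546 in knockout (4.22%; 3.89% of probe sets). Among the 29 it was called in wild type only for 13 genes, in knockout only for 10 and in both for 6. The contrast is also the knockout move less the wild-type move, so choosing genes by it favours opposite and called moves. The count of 27 and the split of calls are thus a description and no test, and the share of opposite moves over all genes is not given. This split is not held with the Gapdh ratio as a covariate, under which 0 of 27022 probe sets had a called move in knockout, against 1052, and 45 in wild type, against 442. Each rise or fall in knockout given for a single gene is a call of the fit without that covariate. Those given for wild type come from the same fit, and which of them the covariate keeps is not given here.

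**Figure D1:**
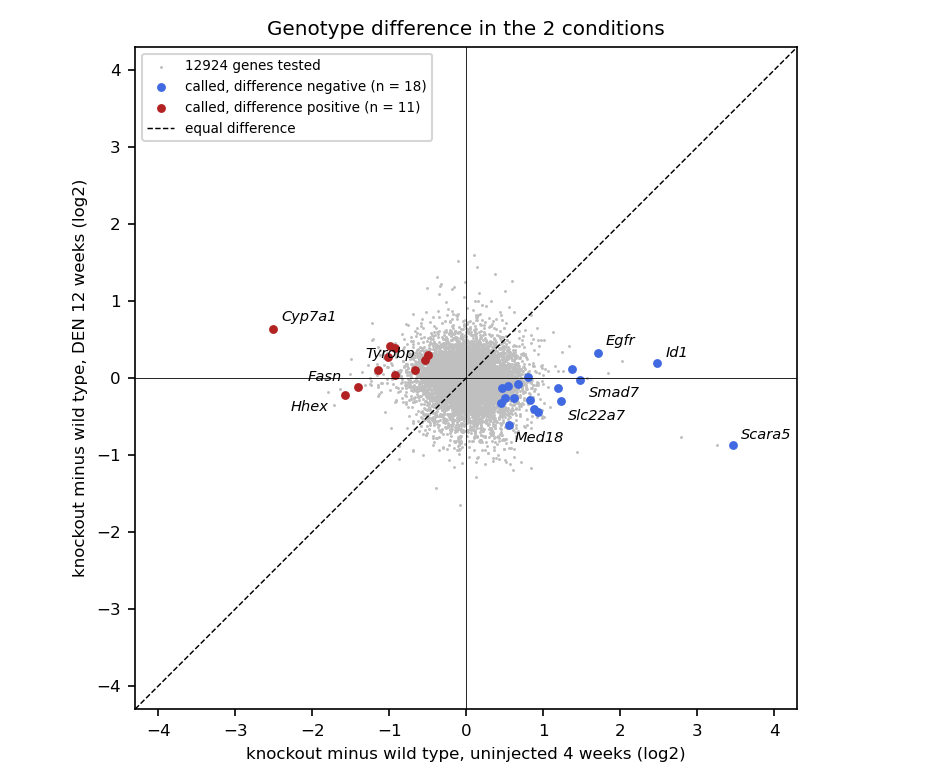
Knockout minus wild-type log2 difference at 4 weeks (horizontal) and with DEN (vertical) for the 12924 genes tested, with the 29 called genes coloured by the direction of the change and the line of equal differences dashed. The called genes lie far from 0 along the horizontal axis and within 0.87 of 0 along the vertical axis, with a median size of 0.92 and 0.26.

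The number of calls depended on single arrays and on the scaling. It was 7 to 63 probe sets when each array was left out in turn. Leaving out wild-type 4-week replicates 1 and 3 gave 11 and 12, knockout 4-week replicates 1, 2 and 3 gave 11, 11 and 7, and knockout DEN replicate 2 gave 21. Leaving out wild-type 4-week replicate 2, wild-type DEN replicate 1 and knockout DEN replicate 3 gave 63, 56 and 62. With array medians centred, 22 probe sets were called, 13 higher and 9 lower, against 14 and 22 as reported. With the 6 saline arrays in the same fit, which add to the shared spread but not to the contrast, 206 were called, and with no trend of the spread with intensity 2 were. The sign of all 29 gene differences was kept in each of these settings, and 6 genes, Scara5, Id1, Cyp7a1, Slc22a7, Lyz1 and Pxdc1, were called whichever array was left out. Of the 29 genes, 9, 27 and 9 kept their call without wild-type 4-week replicates 1, 2 and 3, and 8, 7 and 6 without the knockout 4-week replicates. The numbers were 23, 20 and 24 without the wild-type DEN replicates and 21, 12 and 25 without the knockout DEN replicates. With the Gapdh ratio as a covariate 48 probe sets were called and 26 of the 29 genes kept their call; without the 4-week array of highest ratio in each genotype these numbers were 15 and 11. Where an adjusted p is given for a fit without 1 array, it is the highest over the 12 such fits.

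**Figure D2:**
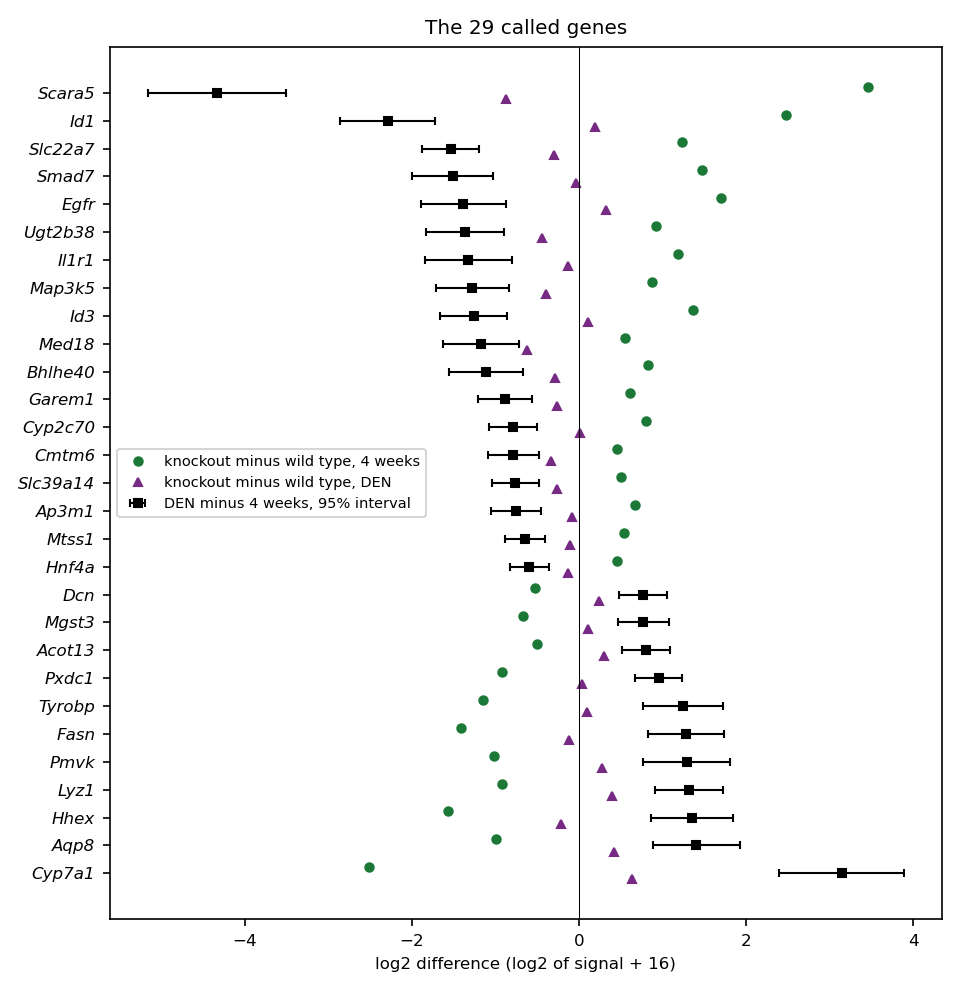
The 29 called genes, ordered by the change in the genotype difference. Squares give that change (DEN minus 4 weeks, log2) with its 95% interval, circles the knockout minus wild-type difference at 4 weeks and triangles that with DEN. The changes run from -4.33 (Scara5) to 3.15 (Cyp7a1), and circle and square lie on opposite sides of 0 for every gene shown.

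The largest change was in Scara5, a scavenger receptor that takes up ferritin (chromosome 14, 65666403 to 65764826, GRCm38, as for the positions that follow). At 4 weeks its signal was 27.9, 38.6 and 33.2 on the wild-type arrays and 503, 572 and 500.1 on the knockout arrays, 11-fold higher in knockout on the scale of signal + 16. With DEN it was 278, 308 and 721 in wild type and 304, 221 and 135 in knockout. The knockout thus stood above wild type at 4 weeks with no overlap, while with DEN the lowest wild-type array was below the highest knockout array. The genotype difference of 3.46 at 4 weeks went to -0.87 with DEN, a change of -4.33 ± 0.39 (SE; limma adjusted p = 6.52e-05). Scara5 rose from 4 weeks to DEN in wild type (3.07) and fell in knockout (-1.26).

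Id1, Id3 and Smad7, which BMP signalling switches on, also had a lower genotype difference with DEN than at 4 weeks. Id1 and Id3 are helix-loop-helix proteins that keep other transcription factors off DNA, and Smad7 is an inhibitory Smad that turns the pathway down. Id1 (chromosome 2, 152736251 to 152737410) had signals of 163, 95.1 and 133 in wild type and 842, 787 and 729 in knockout at 4 weeks. With DEN they were 250.3, 225 and 259 in wild type against 305, 369.9 and 195 in knockout. Knockout was above wild type at 4 weeks with a wide gap, and the groups overlapped with DEN. The change in the genotype difference was -2.29 ± 0.27 (adjusted p = 0.000803), and Id1 rose in wild type (0.86) and fell in knockout (-1.43).

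Smad7 had 84.9, 65.9 and 56.6 in wild type and 192, 241 and 227 in knockout at 4 weeks. With DEN it had 98.4, 90.9 and 92.6 in wild type against 92.7, 104 and 79.3 in knockout, so that the groups overlapped where they had been apart. Here only the knockout had a called move, of -1.13; that of wild type was 0.38 (adjusted p = 0.259). The change in the genotype difference was -1.51 ± 0.23 (adjusted p = 0.0104). For Id3 (chromosome 4, 136143822 to 136145392) the signals were 334, 306 and 346 in wild type and 798, 901 and 934 in knockout at 4 weeks. They were 522, 652 and 599.8 in wild type against 542, 799 and 599.6 in knockout with DEN, again overlapping, and the change was -1.26 ± 0.19 (adjusted p = 0.0104). Id3 lost its call in 1 of 12 fits without an array, at 0.0501 without knockout 4-week replicate 3. Smad7 lost it in 2, at 0.0554 without knockout 4-week replicate 2 and 0.0501 without replicate 3 of that group.

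Of the 15 tested genes on the list of BMP targets and inhibitory Smads, these 3 were called, all lower, against 0.139% of all genes tested, and the median change was -0.36, against -0.03 over all genes tested. Of the 15 changes 10 were negative and 5 positive. The other Id genes had changes of -0.82 for Id2 (adjusted p = 0.299), which was higher in knockout at 4 weeks by 0.97, and -0.44 for Id4 (adjusted p = 0.544). Changes the other way included 0.51 for Atoh8, 0.43 for Hamp2 and 0.29 for Bambi (adjusted p = 0.76, 0.607 and 0.802). The 4-week difference of Hamp2 was -0.71. Smad6, also an inhibitory Smad, had a change of -0.21 (adjusted p = 0.866). Hepcidin, a hormone that blocks iron export and a textbook BMP target in hepatocytes, had a change of -0.36 ± 0.17 (Hamp, adjusted p = 0.475), with signals of 15516 to 19363 at 4 weeks and 13767 to 20823 with DEN. Among the ligands, the genotype difference of Bmp2 went from 0.10 to -0.22 and that of Bmp6 from 0.05 to 0.14, neither change called. Bmp2 itself fell in knockout from 4 weeks to DEN, by 0.61 on the log2 scale (adjusted p = 0.0216).

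**Figure D3:**
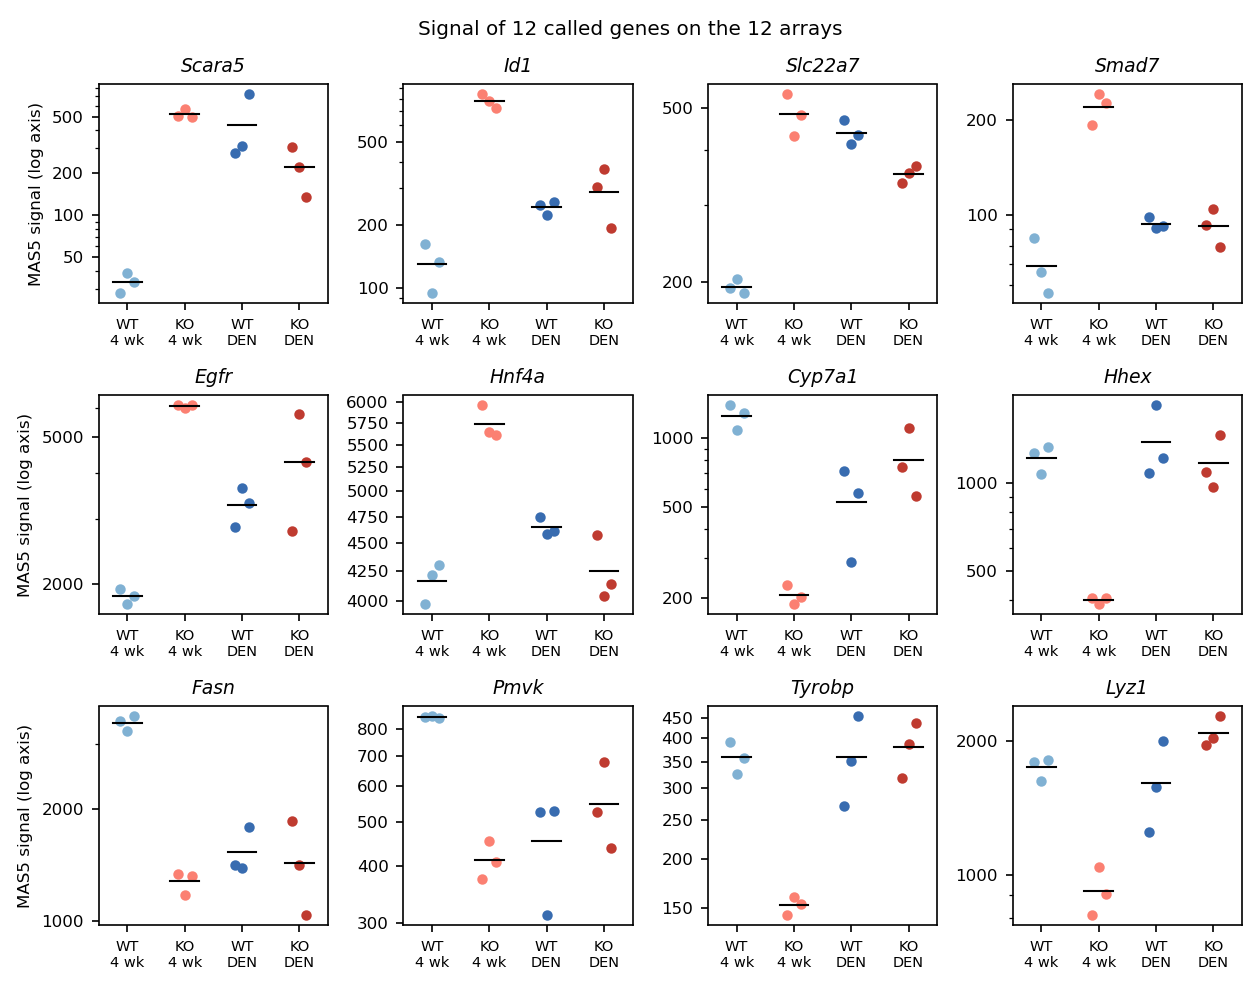
MAS5 signal (log axis, scale differing between panels) of 12 called genes on the 12 arrays, with 3 arrays per group as points and the group mean as a bar. Knockout and wild type are apart at 4 weeks in all 12 panels; with DEN they overlap in all panels but Slc22a7 and Hnf4a.

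The epidermal growth factor receptor Egfr (chromosome 11, 16752203 to 16913907) had signals of 1935, 1762 and 1852 in wild type and 6104, 6007 and 6102 in knockout at 4 weeks, a 3.26-fold difference. The DEN groups had 2861, 3650.2 and 3317 in wild type against 2777, 5769.7 and 4280.3 in knockout, and the knockout arrays spread over the whole range of wild type and beyond. The change was -1.38 ± 0.24 (adjusted p = 0.0298; 0.0981 without wild-type 4-week replicate 3). Egfr was the 1 member called of 16 tested on the Egfr pathway list, against 0.224% of all genes tested. The list's median change was -0.08 as reported and 0.01 with array medians centred.

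Slc22a7, an organic anion transporter of hepatocytes (chromosome 17, 46432185 to 46438477), had signals of 194, 203 and 189 in wild type and 537, 431 and 482 in knockout at 4 weeks. With DEN the order was turned round without overlap, at 469, 414 and 433 in wild type and 336, 356 and 369 in knockout, but the DEN difference of -0.30 was not called (adjusted p = 0.772). Its change of -1.53 ± 0.16 had an adjusted p of 0.000286, and together with Scara5 it was 1 of 2 genes called in each of the 14 settings other than leaving out 1 array at a time.

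With Slc39a14, Scara5 made up the 2 called of 13 iron handling genes, against 0.224% of all genes tested. The interleukin-1 receptor Il1r1, the 1 called of 30 acute phase and inflammation genes, beside the same share, changed by -1.32 ± 0.25 (adjusted p = 0.0406; 0.127 without knockout 4-week replicate 2). Slc39a14, which carries zinc, iron and manganese into the cell, had a smaller change of -0.76 ± 0.13 (adjusted p = 0.0301; 0.116 without knockout 4-week replicate 3). The water channel Aqp8 went the other way, with 1.41 ± 0.25 (adjusted p = 0.0298; 0.111 without knockout 4-week replicate 1). It was lower in knockout at 4 weeks and fell in wild type by 0.98 on the log2 scale. Among signalling genes, the change was -1.27 ± 0.21 for Map3k5, a stress-activated kinase (adjusted p = 0.0179; 0.0824 without wild-type 4-week replicate 3). For Garem1, an adaptor of growth factor receptors, it was -0.88 ± 0.16 (adjusted p = 0.0298; 0.115 without knockout 4-week replicate 3). Both were higher in knockout at 4 weeks and fell there (-0.79 and -0.57), with no called move in wild type.

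The metal-binding metallothioneins had large but variable differences. Mt1 had signals of 429, 352 and 355 in wild type and 3147, 2305 and 2747 in knockout at 4 weeks, with no overlap. The DEN groups had 1528, 661 and 7324 in wild type and 1682, 1504 and 589 in knockout, and wild-type replicate 3 was the highest of the 12 arrays. The change of -3.56 ± 0.76 was not called (adjusted p = 0.0746). Without that array it was -2.61 and was called (adjusted p = 0.0295); without wild-type DEN replicate 2 it was -4.33 (adjusted p = 0.00899). For Mt2 the change was -4.13 ± 0.90 (adjusted p = 0.0748), and without the same arrays it was -3.03 and -5.01 (adjusted p = 0.0375 and 0.0099). The list of 10 metallothionein and zinc genes held 1 called member, Slc39a14, against 0.224% of all genes tested. The list's median change was -0.44.

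Cyp7a1 (chromosome 4, 6265612 to 6275632), which sets the rate at which cholesterol is turned into bile acids, had the largest change in the other direction. At 4 weeks its signal was 1390.3, 1082 and 1283 in wild type and 228, 188 and 202 in knockout, lower in knockout by 5.70-fold. With DEN it was 718, 286 and 576 in wild type and 749, 1103 and 557 in knockout, and the groups overlapped. It fell in wild type (-1.31) and rose in knockout (1.83), and the genotype difference changed by 3.15 ± 0.36 (adjusted p = 0.000602). It was the 1 called gene of 22 tested on the bile acid list, against 0.224% of all genes tested. Cyp8b1, which sets the share of cholic acid, had 0.71 ± 0.40 (adjusted p = 0.555), and Nr0b2, a repressor of Cyp7a1, had -0.44 ± 0.39 (adjusted p = 0.748).

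Cyp2c70, which makes the muricholic acids of mice, was the 1 called of 34 cytochrome P450 genes, against 0.224% of all genes tested. The median change of the 34 was -0.01, with 17 positive. Cyp2c70 had signals of 6448, 5693 and 6503 in wild type and 10857, 11094 and 10487 in knockout at 4 weeks. With DEN they were 8181, 7245 and 9485 in wild type against 7995, 8095 and 8932 in knockout, which overlapped, and the change was -0.79 ± 0.14 (adjusted p = 0.0296; 0.0979 without knockout 4-week replicate 1). Ugt2b38, which joins glucuronic acid to its substrates, changed by -1.36 ± 0.22 (adjusted p = 0.0179; 0.0672 without knockout 4-week replicate 1); it belongs to a family of near-identical genes, so its probes may read its relatives. Mgst3, a membrane glutathione transferase, went up, with 0.77 ± 0.14 (adjusted p = 0.0406; 0.137 without wild-type 4-week replicate 3). So did Acot13, an acyl-CoA thioesterase, with 0.80 ± 0.14 (adjusted p = 0.0274; 0.104 without knockout 4-week replicate 3). Cyp2e1, the main enzyme that activates DEN, had a change of -0.04 ± 0.12 (adjusted p = 0.94, 95% interval -0.30 to 0.22), with signals of 24854 to 30423 on the 12 arrays.

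Genes of cholesterol synthesis had negative genotype differences at 4 weeks, with 4 of 7 genes of the early stretch and 3 of 11 of the late stretch lower in knockout, against 0.565% of all genes tested. With DEN 0 of these differed, against 0% of all genes tested, so this does not set them apart. In the stretch from acetyl-CoA to farnesyl diphosphate, 7 of 7 tested genes had a positive change, with a median of 0.94, and 1, Pmvk, was called. From squalene to cholesterol 11 of 11 were positive, with a median of 0.67, and 0 were called. Over all genes tested the median was -0.03, 46.3% were positive and 0.224% were called. The median genotype difference went from -1.02 to 0.27 in the early stretch and from -0.68 to 0.13 in the late one. These lists were chosen with earlier results of these data known, so their direction is no independent evidence, and their medians were positive under quantile, median and loess scaling alike.

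Pmvk, phosphomevalonate kinase (chromosome 3, 89454541 to 89469014), had signals of 851, 853 and 845 in wild type and 375, 453 and 409.5 in knockout at 4 weeks. The DEN signals were 525, 312 and 528 in wild type against 526, 678 and 438 in knockout, overlapping and all below the 4-week wild-type signals. The change was 1.29 ± 0.25 (adjusted p = 0.0438; 0.124 without knockout 4-week replicate 3). The call was lost with the Gapdh ratio as a covariate (adjusted p = 0.0677), without the 4-week arrays of highest ratio, and with quantile scaling, 1 added, no filter, no trend or the replicate number as a block. Pmvk in wild type fell from 4 weeks to DEN by 0.91 on the log2 scale. Hmgcs1, the synthase at the head of the pathway, had 12021, 19175 and 15199 in wild type and 7908, 6664 and 6513 in knockout at 4 weeks. With DEN it had 7936, 3093 and 7863 in wild type against 7808, 9193 and 5739.5 in knockout, and 1 wild-type array, replicate 2, lay below all others. The brightest probe set of Hmgcs1 had a change of 1.48 ± 0.37 that was not called (adjusted p = 0.129), while a second probe set of the gene was, with 1.41 ± 0.26 (adjusted p = 0.0406).

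Next to the threshold were Fdft1, squalene synthase, with 1.17 ± 0.23 (adjusted p = 0.0533), Lss, lanosterol synthase, with 1.02 ± 0.21 (adjusted p = 0.0621), and Idi1, an isomerase, with 0.94 ± 0.21 (adjusted p = 0.0762). All 3 were lower in knockout at 4 weeks (-1.02, -1.03 and -0.69) and fell in wild type from 4 weeks to DEN (-0.95, -0.80 and -0.86). Fdps, farnesyl diphosphate synthase, instead rose in knockout (1.26, adjusted p = 0.0177). Its change was 1.55 ± 0.38 (adjusted p = 0.116).

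Promoters of these genes are shown because their changes had 1 sign. RefSeq (GRCm38.p6) gave a promoter, 250 bases before to 50 bases after a gene start, for 15 of the 18 genes, and CCAAT, the box bound by NF-Y, was found on either strand in 15 of 15, against 41.1% of 27025 genes with a promoter. A 10-letter form of the sterol response element was found in 0 of 15, against 0.27% of those genes. With so low a share, 0 of 15 does not set them apart. Only matches to that form were counted, so the scan cannot show whether these promoters lack sterol response elements of other forms. CCAAT was also found in 23 of 28 genes of endoplasmic reticulum stress and folding, whose changes were negative in 31 of 32. A match is a description of the letters and no evidence of binding. The promoters of Pmvk (the first of 2, chr3:89454291-89454590 on the plus strand), Hmgcs1 (chr13:119690101-119690400 on the plus strand) and Idi1 (chr13:8885356-8885655 on the plus strand) are given 5' to 3', with CCAAT or its reverse complement in capitals.
Pmvk: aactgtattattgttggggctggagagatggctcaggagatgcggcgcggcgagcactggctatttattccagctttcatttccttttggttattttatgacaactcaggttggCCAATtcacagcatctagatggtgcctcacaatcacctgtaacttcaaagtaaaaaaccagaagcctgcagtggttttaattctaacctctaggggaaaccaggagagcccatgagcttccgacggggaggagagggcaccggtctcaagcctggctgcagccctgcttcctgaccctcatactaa
Hmgcs1: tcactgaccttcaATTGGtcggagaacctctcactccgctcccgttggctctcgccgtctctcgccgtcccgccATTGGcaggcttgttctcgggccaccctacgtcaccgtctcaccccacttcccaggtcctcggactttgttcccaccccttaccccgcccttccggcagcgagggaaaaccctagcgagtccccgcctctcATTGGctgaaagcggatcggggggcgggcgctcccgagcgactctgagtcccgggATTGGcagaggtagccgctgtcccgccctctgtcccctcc
Idi1: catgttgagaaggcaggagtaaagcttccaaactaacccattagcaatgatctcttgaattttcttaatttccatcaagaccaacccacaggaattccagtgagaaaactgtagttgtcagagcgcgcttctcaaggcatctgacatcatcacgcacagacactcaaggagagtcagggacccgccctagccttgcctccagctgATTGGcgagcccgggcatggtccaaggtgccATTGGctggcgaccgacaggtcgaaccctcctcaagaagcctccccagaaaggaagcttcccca

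Fatty acid synthesis held 1 called gene of 20, against 0.224% of all genes tested. Fasn, fatty acid synthase (chromosome 11, 120805958 to 120825166), had signals of 3455, 3246 and 3555 in wild type and 1338, 1179.7 and 1326 in knockout at 4 weeks. In the DEN groups they were 1418, 1389 and 1792 in wild type against 1861, 1417 and 1040.4 in knockout. Wild type alone had moved, falling by 1.16 on the log2 scale to the range of the knockout, whose move of 0.13 was not called. The change in the genotype difference was 1.29 ± 0.22 (adjusted p = 0.0249; 0.0968 without wild-type 4-week replicate 3). The list's median change was 0.28. Thrsp, a lipogenic cofactor, had 1.16 ± 0.27 and Acly, ATP citrate lyase, 0.80 ± 0.20 (adjusted p = 0.102 and 0.116), while Scd1, stearoyl-CoA desaturase, had -0.01 ± 0.11.

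The hepatocyte transcription factors Hhex and Hnf4a were called, in opposite directions. Hhex, a homeobox factor of liver development (chromosome 19, 37434841 to 37440731), had signals of 1271, 1073 and 1328 in wild type and 407, 387 and 406 in knockout at 4 weeks. The DEN signals were 1089, 1846 and 1225 in wild type against 1097, 973 and 1460.3 in knockout, so that knockout alone had risen, by 1.5. The change was 1.35 ± 0.24 (adjusted p = 0.0296; 0.111 without wild-type 4-week replicate 3). Hnf4a, a master regulator of hepatocyte genes (chromosome 2, 163506811 to 163572907), had 3976, 4219 and 4305 in wild type and 5955, 5640.4 and 5604 in knockout at 4 weeks. After DEN it had 4751, 4588 and 4618 in wild type against 4579.6, 4039 and 4144 in knockout, where the highest knockout array lay just under the lowest wild-type array. The change was -0.59 ± 0.11, the smallest of the 29 (adjusted p = 0.0439; 0.13 without knockout 4-week replicate 1). On the list of 19 hepatocyte transcription factors 1 was called higher and 1 lower, against 0.0851% and 0.139% of all genes tested. The median change was -0.39, with 13 negative and 6 positive. Among the negative ones Cebpa, Rxra and Foxa3 had -0.59, -0.50 and -0.46, not called (adjusted p = 0.204, 0.225 and 0.457). Those were picked with earlier results of these data known.

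Bhlhe40, a repressor tied to the circadian clock, was the 1 called gene of 16 clock genes, against 0.224% of all genes tested, with -1.11 ± 0.21 (adjusted p = 0.0432; 0.141 without wild-type 4-week replicate 3). The call was lost with the Gapdh ratio as a covariate (adjusted p = 0.0626), without the 4-week arrays of highest ratio, and with array medians centred, 1 added, no filter or no trend. It rose in wild type from 4 weeks to DEN (0.96). The clock repressor Per2 had a change of -0.07 ± 0.40 (adjusted p = 0.974), and Nr1d1, also a clock repressor, had -1.11 ± 0.53 (adjusted p = 0.48). The median change of the 16 clock genes was -0.19, with 13 negative and 3 positive. Med18, a subunit of the Mediator complex (chromosome 4, 132458729 to 132463921), was the only called gene whose 4-week difference was not itself called (0.55, adjusted p = 0.11). Its signals were 72.6, 66.5 and 84.9 in wild type and 121, 130.5 and 99.5 in knockout at 4 weeks. They were 151, 135 and 156 in wild type against 90.7, 82.2 and 99.3 in knockout with DEN, where wild type stood above knockout with no overlap. The change was -1.17 ± 0.22 (adjusted p = 0.0406; 0.127 without knockout 4-week replicate 2).

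Of 19 markers of Kupffer cells and macrophages, 6 were lower in knockout at 4 weeks, against 0.565% of all genes tested. With DEN 0 differed, against 0% of all genes tested, so this does not set them apart. The median genotype differences were -0.53 at 4 weeks and 0.06 with DEN. The change was positive in 18 of 19, with a median of 0.52, and Tyrobp and Lyz1 were called, against 0.0851% of all genes tested with a higher change. In bulk liver, fewer cells of a type and less RNA per cell cannot be told apart. Tyrobp, a signalling adaptor of myeloid cells (chromosome 7, 30413782 to 30417582), had signals of 393, 326 and 356 in wild type and 144, 160.5 and 154 in knockout at 4 weeks. The DEN signals were 271, 351 and 454 in wild type against 318, 388 and 438 in knockout, overlapping and all above the 4-week knockout signals. The change was 1.25 ± 0.23 (adjusted p = 0.0377; 0.113 without knockout 4-week replicate 3). The call was lost with the Gapdh ratio as a covariate (adjusted p = 0.0511), without the 4-week arrays of highest ratio, and with array medians centred, no filter or no trend.

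Lysozyme, an enzyme that cleaves bacterial walls, was read for Lyz1 (chromosome 10, 117287795 to 117292868) as 1794, 1627 and 1808 in wild type and 811, 1040.5 and 904 in knockout at 4 weeks. With DEN it was 1249, 1576 and 1998 in wild type against 1959, 2032 and 2269.98 in knockout. The change was 1.31 ± 0.19 (adjusted p = 0.00935). The probes may also read the near-identical Lyz2, whose own probe set had 1.03 ± 0.22 (adjusted p = 0.0746). From 4 weeks to DEN 13 of 19 rose in knockout and 0 in wild type, against 2% and 0.797% of all genes tested. With the Gapdh ratio as a covariate, 0 of 27022 probe sets had a called move in knockout (2182 at an unadjusted p under 0.05), against 1052 as reported, so these 13 calls are not held under that setting.

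The summed signal of the 19 markers was 13744 to 14339 in wild type and 9683 to 10348 in knockout at 4 weeks. With DEN it was 12249.8 to 16254 and 13043 to 18692; the 3 knockout arrays at 4 weeks were thus the lowest of the 12. Csf1r, the receptor that macrophages need to survive, had a change of 0.52 ± 0.15 (adjusted p = 0.207). Clec4f, a lectin that marks Kupffer cells, had 0.44 ± 0.19 (adjusted p = 0.445), and C1qa, a complement subunit, 0.67 ± 0.25 (adjusted p = 0.332). Neutrophil and monocyte markers, with 0 of 7 called against 0.224% of all genes tested, had a median change of 0.04.

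Stellate cell and matrix genes held 1 called member of 22, against 0.224% of all genes tested. It was decorin (Dcn, chromosome 10, 97479500 to 97518163), a proteoglycan that coats collagen. Its signals were 2783, 2881 and 2875 in wild type and 2027, 1934 and 1944 in knockout at 4 weeks. In the DEN groups they were 2218, 2209 and 2446 in wild type against 3059.7, 2811 and 2306 in knockout, overlapping. The change was 0.77 ± 0.14 (adjusted p = 0.0353; 0.115 without knockout 4-week replicate 3), and the list's median was 0.30. The 22 changes ran from -1.57 to 1.72, with 17 positive and 5 negative. The smooth muscle genes Acta2 and Tagln, which mark activated stellate cells and vessel walls, had 1.43 and 1.72 (adjusted p = 0.328 and 0.301). Tagln was the highest of the list, and both were picked with earlier results of these data known. Under quantile scaling the collagen genes Col1a1 and Col3a1 had -0.52 and 0.75, not called. Endothelial markers, with 0 of 18 called against 0.224% of all genes tested, had a median of 0.13.

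**Figure D4:**
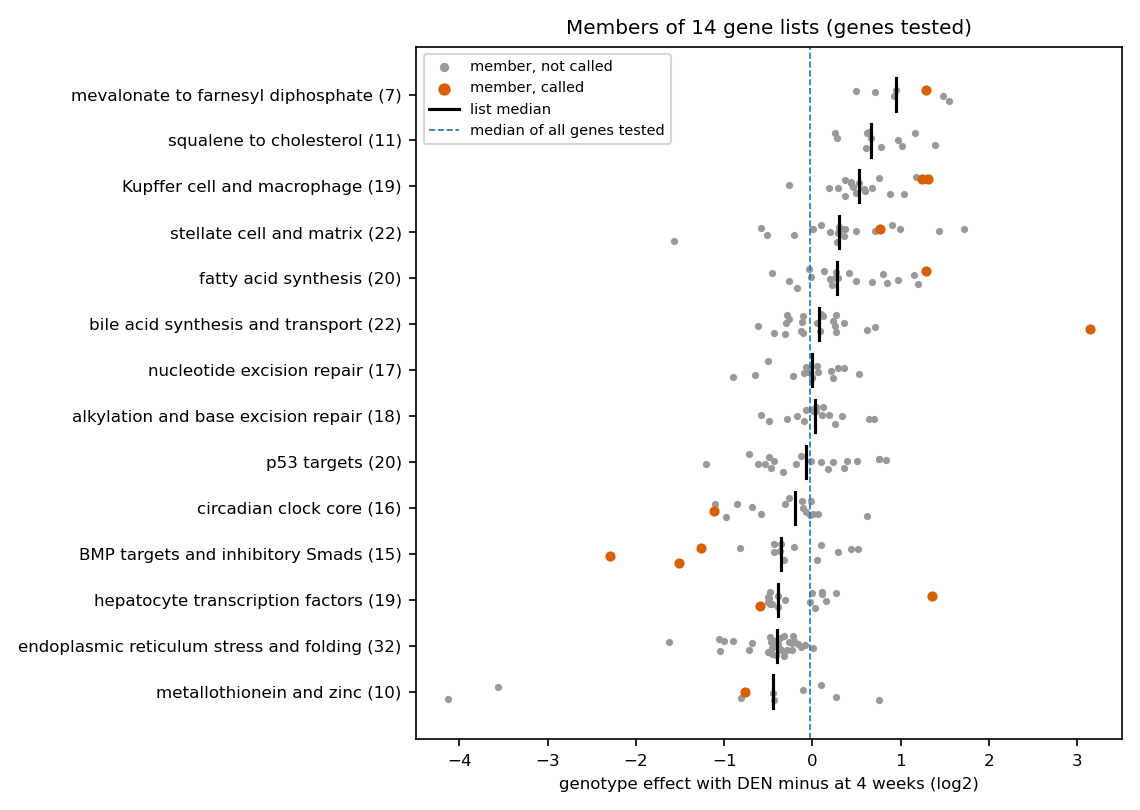
Change in the genotype difference (DEN minus 4 weeks, log2) of the tested members of 14 gene lists, with called members in orange, list medians as black bars and the median of all genes tested, -0.03, as a dashed line; the number tested is in brackets. The medians run from -0.44 for metallothionein and zinc genes to 0.94 for the mevalonate stretch of cholesterol synthesis.

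The remaining called genes lie outside these groups. Pxdc1, a protein with a lipid-binding PX domain (chromosome 13, 34627840 to 34652681), had signals of 1562, 1558 and 1592 in wild type and 858, 788 and 823 in knockout at 4 weeks. In the DEN groups they were 748, 791 and 797 in wild type against 719, 847 and 837 in knockout. Wild type alone had moved, down to the knockout level, and the change was 0.96 ± 0.13 (adjusted p = 0.00642). Cmtm6, a membrane protein that steadies the checkpoint ligand PD-L1, had -0.78 ± 0.14 (adjusted p = 0.0406; 0.14 without knockout 4-week replicate 3). Ap3m1, a subunit of a vesicle coat, and Mtss1, which bends membranes onto actin, had -0.75 ± 0.14 and -0.64 ± 0.11 (adjusted p = 0.0406 and 0.0306); both were outside the naming rule and were added after their values were seen. Without 1 array these stood at 0.127 without knockout 4-week replicate 2 and 0.112 without knockout 4-week replicate 1.

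Other probe sets of the called genes mostly had the same sign but were not called. Of the 29 genes, 13 had 27 further tested probe sets, of which 25 had the sign of the called one and 0 were called. Opposite signs were found for Garem1 (0.90) and Hnf4a (0.43). A dimmer probe set of Scara5 had a change of -0.46 ± 0.40 (limma adjusted p = 0.734). Its genotype difference at 4 weeks was -0.05. In turn, 5 called probe sets belonged to genes whose brighter probe set was not called: Syvn1, Srsf6 (-0.79), Ces1d (0.88), Dpp4 (1.05) and Hmgcs1. Apart from Syvn1 and Hmgcs1, these genes were named after their values were seen. The other 2 called probe sets, with -1.21 and -0.90, carry no gene name in the annotation used.

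Genes of the endoplasmic reticulum's folding and stress response had 0 of 32 called, against 0.224% of all genes tested. Their changes were negative in 31 of 32, with a median of -0.40 against -0.03 over all genes tested. Hspa5, the main chaperone, had -0.35 ± 0.20 (adjusted p = 0.562), Dnajb9, its co-chaperone, -0.45 ± 0.16 (adjusted p = 0.301), and Syvn1, a ubiquitin ligase that clears misfolded proteins, -1.05 ± 0.25 by its brighter probe set (adjusted p = 0.104) and -1.36 ± 0.19 by a dimmer one that was called (adjusted p = 0.00671). From 4 weeks to DEN 6 of the 32 fell in knockout, among them Dnajb9 (-0.83) and Syvn1 (-1.18), and 0 in wild type, against 2.23% and 0.99% of all genes tested. None of these 6 calls is held with the Gapdh ratio as a covariate.

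Lists that bear on DNA damage showed no called change. There were 0 calls among 17 nucleotide excision repair genes, 18 genes of alkylation and base excision repair, and 20 p53 targets. Over all genes tested 0.224% were called, so in lists of this size 0 calls do not set them apart. The median changes were -0.01, 0.03 and -0.07. Mgmt, which removes alkyl groups from guanine, had 0.70 ± 0.33 (95% interval -0.01 to 1.40, adjusted p = 0.478). Fas, a death receptor and p53 target, had signals of 194, 169 and 133 in wild type and 252, 242 and 258 in knockout with DEN, which did not overlap, but its change of 0.75 ± 0.20 was not called (adjusted p = 0.158). Afp, a fetal liver protein and tumour marker, had 0.88 ± 0.42 (adjusted p = 0.474). In all, 17 of the 52 lists held a called member, and 19 of the 29 called genes were on a list. The lists held 779 of the 12924 genes tested. They were chosen with earlier results of these data known, so this count is a description and no test.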

How the data were processed

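Liver RNA was hybridised to Affymetrix Mouse430_2 arrays, 1 per sample. Values are MAS5 signal intensity on a linear scale, which the authors deposited scaled to a trimmed mean of 150 (trimming 2% at each end, from the values); MAS5 is named per the submitters' processing notes, and its version is not given in the sources used here. MAS5 scaling assumes that the bulk of probe sets does not change.

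Control probe sets (64 of 45101) were left out, 16 was added and log2 taken, and probe sets whose mean over the 12 arrays was under the 40th percentile were dropped, which left 27022. The 16 added understates fold changes of dim genes. The 4 group means were fitted with limma 3.58.1 in R 4.3.3 (eBayes with an intensity trend, 8 residual degrees of freedom), the contrasts taken from that fit, and p-values adjusted by Benjamini-Hochberg over all probe sets tested, with a threshold of 0.05. The fit was tested on simulated data.

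Of the 45037 remaining probe sets, 34945 have 1 gene symbol, 932 several and 9160 none in the platform annotation. A gene was read by its tested probe set of highest mean. Genes named were the 15 largest changes in each direction among those called, Hmgn1, up to 4 called members per list (otherwise that of smallest p), up to 4 genes per pattern of calls, and members of lists described as groups. The members and the 52 lists were chosen with earlier results of these data known.

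Alternatives were the replicate number as a block, quantile, median and loess scaling, 1 or 64 added, no filter or a 60th percentile filter, no trend, array weights, all 18 arrays in the fit, probe set type, the Gapdh ratio, and each array left out. Same-numbered samples of the 4 groups deviated from their group means with correlations of -0.10 to 0.07 over 18 pairs. Pairs of unlike number had -0.08 to 0.09. Whether equal numbers stand for anything shared is not given in the labels, and these values cannot decide it. The saline arrays had a highest signal of 16720 to 21752, against 46967 to 60173 on the others.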

Additional observations from a re-analysis of the deposited data

Results flagged for a closer look

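The genotype difference itself differed between the DEN and the 4-week mice, by limma's test of that difference at a Benjamini-Hochberg adjusted p under 0.05, at 36 probe sets. The 29 genes among them are listed here because they passed that test of the difference between conditions. The values are log2 changes, DEN minus 4 weeks, of the knockout minus wild-type difference.

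Among receptors, transporters and signalling genes, the change was -4.33 for Scara5, -1.53 for Slc22a7, -1.38 for Egfr, -1.32 for Il1r1, -0.76 for Slc39a14 and 1.41 for Aqp8. It was -1.27 for Map3k5, -0.88 for Garem1, -2.29 for Id1, -1.26 for Id3 and -1.51 for Smad7. Of the genes that regulate transcription, Hnf4a had -0.59, Hhex 1.35, Bhlhe40 -1.11 and Med18 -1.17.

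Among metabolic enzymes, Cyp7a1 had 3.15, Cyp2c70 -0.79, Ugt2b38 -1.36, Fasn 1.29, Pmvk 1.29, Acot13 0.80 and Mgst3 0.77. The genes of non-parenchymal cells had 1.25 for Tyrobp, 1.31 for Lyz1 and 0.77 for Dcn. The others had 0.96 for Pxdc1, -0.78 for Cmtm6, -0.75 for Ap3m1 and -0.64 for Mtss1.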

How the results depend on the processing

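The count of 36 called probe sets for the change in the genotype difference stayed within 1.5 times (33 to 48) under quantile and loess scaling, 1 or 64 added, the 60th percentile filter, no probe sets of the _x_at and _s_at types, and the Gapdh ratio as a covariate. It was 22 with array medians centred, 20 with no filter, 2 with no trend, 145 with array weights, 206 with all 18 arrays, and 15 without the 4-week array of highest Gapdh ratio in each genotype. What same-numbered samples share beyond the number is not given in the labels. With the replicate block the count was 22 and 17 of the 29 genes kept their call. Of 12 arrays 5 correlated best with an array of their own number. Left out in turn, single arrays gave 7 to 63.

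The knockout minus wild-type count at 4 weeks, 252, was 157 with centred medians, 15 with no trend, 996 with array weights, 611 with all 18 arrays, 64 without the arrays of highest Gapdh ratio, 449 with these 2 groups alone, and 80 to 290 without single arrays. With DEN the count of 0 (1651 at an unadjusted p under 0.05) was 1 with 1 added, 2 with all 18 arrays, 1 without the _x_at and _s_at types, and 0 to 1 without single arrays.

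From 4 weeks to DEN the wild-type count of 442 was 680 with centred medians, 230 with no filter, 40 with no trend, 1190 with all 18 arrays, 45 with the Gapdh ratio as a covariate, 90 without the arrays of highest ratio, 199 with these 2 groups alone, and 125 to 500 without single arrays. The knockout count of 1052 was 666, 604, 101 and 2226 under the first 4 of these settings, 1729 with array weights, 0 with the Gapdh covariate (2182 at an unadjusted p under 0.05), 330 without the arrays of highest ratio, and 153 to 1556 without single arrays. The cause of these moves was not tested, except that fewer samples or more probe sets enter some fits.

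For the 29 genes the sign was kept in all of these fits. Of 75 other genes described, 22 were called in some alternative or without some array, and Cyp2e1, Hmgn1, Per2 and Scd1 changed sign. Bcl6, with -1.78 (adjusted p = 0.196), had -2.45 without knockout DEN replicate 3 (adjusted p = 0.000181). The precision is limited by 3 arrays per group, and probe sets under the filter were not tested.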

Other observations

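Of 20 immediate early genes 0 were called, against 0.224% of all genes tested, and the median change was -0.28. From 4 weeks to DEN 5 fell in knockout, against 2.23% of all genes tested, and 0 rose. Fos, a subunit of the AP-1 factor, was 1 of those 5, at -1.48 (adjusted p = 0.0355). None of these 5 calls is held with the Gapdh ratio as a covariate. Hes1, a repressor driven by Notch, had signals of 71.4, 33.1 and 61.2 in wild type and 191, 209 and 171 in knockout at 4 weeks. With DEN it had 73.4, 93.8 and 51.3 in wild type against 76.8, 97.6 and 46.5 in knockout. Its change was -1.57 ± 0.35 (limma adjusted p = 0.0757). Bcl6, a transcriptional repressor, had 248, 357 and 312 in wild type and 1098, 1078 and 1194 in knockout at 4 weeks. The DEN groups had 152, 223 and 148 in wild type against 119, 95.04 and 484 in knockout, where knockout replicate 3 stood far above the others of its group.

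Among relatives of Hmgn1, 0 of 8 high mobility group genes were called, against 0.224% of all genes tested, with a median change of 0.21. Hmgn3, a close relative, had 1.22 ± 0.42 (adjusted p = 0.301). Of 28 genes near Hmgn1 on chromosome 16, 0 were called, beside the same share, with a median of 0.04. Cyp7b1, which hydroxylates oxysterols, was higher in knockout at 4 weeks (0.75) and rose in wild type (0.57); its change of -0.61 ± 0.17 was not called (adjusted p = 0.196).

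The saline-injected mice, also labelled 12 weeks, took no part in the contrast. In a fit of all 18 arrays, their knockout minus wild-type differences for the 29 genes had the 4-week sign in 27, with a median size of 0.38, against 0.92 at 4 weeks and 0.26 with DEN. The differences ran from -0.93 to 1.52, and 1, that of Id1, was called (1.52, adjusted p = 0.00256). The genotype difference with DEN was called as different from that with saline at 0 of 27022 probe sets. That with saline differed from that at 4 weeks at 1 probe set, of Scara5 (-2.68, adjusted p = 0.014). The saline arrays have a lower highest signal than the others, and its part in these values was not tested.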
